A study of Schizosaccharomyces pombe with 22 samples.

Results

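Exon-exon junctions read in polyadenylated RNA were compared between a dbr1 deletion and wild type of the fission yeast Schizosaccharomyces pombe. The comparison used 6 of the 22 libraries of the study, and 10352 distinct junctions, taken as 1 record for each chromosome, 5' splice site and 3' splice site. The authors listed them apart from the annotated introns, although 17 match an intron of the reference annotation used here, among them the most deeply read. By the authors' classes, 2942 were alternate junctions, with a 5' or 3' site upstream or downstream of that of an annotated intron, and 7410 were unannotated junctions in untranslated regions, exons, noncoding RNAs, antisense transcripts and intergenic DNA. The junctions came from lariat reads of the dbr1 deletion, and 8398 of them had no read in the 6 libraries. The labels and column headers do not say how each 3' site was assigned.

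Dbr1 is the debranching enzyme. When an intron is removed, its 5' end is joined to an adenosine near its 3' end, and the intron leaves the spliceosome as a closed loop with a tail, the lariat. Dbr1 cuts this branch so that the linear intron can be degraded, and without it lariats of excised introns persist in the cell. The exons have already been joined by then, and an exon-exon junction in polyadenylated RNA therefore records a splicing product, not the lariat. The loop itself carries no poly(A) tail.

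Both strains were 972h-, labelled wt 972h- and delta dbr 972h-. Each was grown in rich media, subjected to heat shock, or taken at the diauxic shift, when the sugar is used up and cells turn to respiration. Cells were kept at 30 °C outside heat shock. Each strain and condition had 1 TruSeq library of polyadenylated RNA, which gives 3 pairs of libraries and no repeat of any pair. The labels do not say that the libraries came from separate cultures, nor whether the deletion was 1 clone. No junction was assigned to dbr1 and gene levels were not analysed here, so the deletion was not checked in the RNA.

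The libraries held 12330328 to 18855775 aligned reads, of which 3331 to 6753 crossed 1 of these junctions. Reads were seen at 1954 of the 10352 junctions in at least 1 library, and at 138 in all 6 libraries. In rich media 516 junctions had reads in wild type and 540 in the deletion. The numbers were 798 and 748 in heat shock, and 934 and 754 at the diauxic shift, where the deletion library was also the shallower one. Wild type libraries alone had reads at 618 junctions, none with more than 13 reads over the 3 libraries, and deletion libraries alone at 480, none with more than 15 reads. For a junction without reads, the limit set by 3 reads in a library of this depth applies, and absence is not shown.

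The ends of the introns that the main results turn on are shown here, so that the splice sites behind the values can be read. All 10352 junctions began with GT and ended with AG on the ASM294v3 reference, from which the bases were taken. In the 5' ends below, 5 exon bases come first and the first 6 intron bases are in capitals. The 3' ends are the last bases of the intron, with the final AG in capitals and the 5 bases around the branch point that had the most lariat reads, whose adenosine is the fourth of the 5.
tom7, 56-base intron, chrII:1344026-1344081, minus strand, 5' end: gttagGTATGGctttcc
tom7, 56-base intron, 3' end: ttcagagttttttaCTAATtaatgaaAG
tom7, 54-base intron, chrII:1343935-1343988, minus strand, 5' end: atgcgGTAAGGaaaatg
tom7, 54-base intron, 3' end: aatgaacatttgttgCTAATgatttcAG
deb1, 113-base intron, chrI:3536618-3536730, plus strand, 5' end: tgttgGTAAAGtctatg
deb1, 113-base intron, 3' end: tttacatgaacgCTGACcaaaacaatAG
prp10, 47-base intron, chrI:4336575-4336621, minus strand, 5' end: tgaagGTACCCaggatt
prp10, 47-base intron, 3' end: tttacaatataatgCTCATctttttaAG
SPAC343.20, 108-base intron, chrI:1668823-1668930, minus strand, 5' end: ggaagGTACGGttggtg
SPAC343.20, 108-base intron, 3' end: gtgaacaggagggCTAACcaaatgtaAG
mamRNA, 227-base intron, chrII:1308191-1308417, plus strand, 5' end: taaagGTATGTtcgccg
mamRNA, 227-base intron, 3' end: tctttcagtgtaCTAACttcttttttAG
elo1, 117-base intron, chrI:251746-251862, minus strand, 5' end: aaaagGTAACTcatcag
elo1, 117-base intron, 3' end: gttaCTAATctgtatcctatttcttcAG
Of these 7 introns, only the one in mamRNA began with GTATGT. Over all 10352 junctions GTATGT opened 1140 introns (11.01%) and GTAAGT, the most frequent beginning, opened 1788 (17.3%). Among the 97 junctions with enough reads for a test, GTATGT opened 12 (12.4%) and GTAAGT 25 (25.8%). The median intron length was 104 bases over all junctions and 92 bases over those tested.

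Summed over all junctions and scaled to reads per 1000000 aligned reads (RPM), junction reads were lower in the deletion in each of the 3 conditions. In rich media the sums were 267.9 RPM in wild type and 229.1 RPM in the deletion. In heat shock they were 361.7 and 250.6, and at the diauxic shift 358.1 and 319.6. Divided by wild type, the deletion stood at 0.855 in rich media (exact 95% counting interval 0.816 to 0.897), at 0.693 after heat shock (0.666 to 0.721) and at 0.892 at the diauxic shift (0.858 to 0.928). The mean log2 ratio was -0.31 ± 0.20 (SD, n = 3 pairs), and the exact two-sided sign-flip permutation test gave p = 0.25, the smallest value that 3 pairs allow. These intervals hold counting error alone, as each strain and condition had 1 library. They also take each read as separate, although nothing marks PCR copies among the reads. In RNA of whole cultures, fewer cells with a transcript and less of it per cell cannot be told apart.

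Junctions in 5' untranslated regions stood lowest among the classes. Their 167 reads in wild type and 117 in the deletion in rich media gave 13.4 and 7.50 RPM, a ratio of 0.558 (0.437 to 0.711). In heat shock 229 and 101 reads gave a ratio of 0.398 (0.312 to 0.505). At the diauxic shift 310 and 117 reads gave a ratio of 0.577 (0.463 to 0.716). The 3 pairs were all lower and their intervals all lay below 1, with a mean log2 ratio of -0.99 ± 0.30 (SD, n = 3; exact permutation p = 0.25, the smallest possible). No test of this class against the others was made. The cnl2 junction, which had the most reads in the class, held 18.1% of them, and without it the mean was -1.06. With the summed junction reads as denominator it was -0.68.

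Junctions within noncoding RNAs also had lower sums in every pair, at ratios of 0.738, 0.654 and 0.678 in rich media, heat shock and diauxic shift, with intervals that all ended below 1, and a mean log2 ratio of -0.54 ± 0.09 (SD, n = 3; -0.23 with the summed junction reads as denominator). Junctions in 3' untranslated regions gave ratios of 0.886, 0.777 and 0.880. Their mean log2 ratio of -0.24 turned to 0.07 with the summed junction reads as denominator. Of the 8983 reads of this class, the 56-base tom7 intron held 3284 (36.6%) and the 54-base tom7 intron 3268. The ratios of this class therefore mostly describe tom7.

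Alternate junctions with a downstream 3' site (0.920, 0.695 and 0.887) or an upstream 5' site (0.990, 0.666 and 0.844) were also lower in each pair. Their rich media intervals included 1, and their mean log2 ratios turned positive with the summed junction reads as denominator. Several other classes moved apart between conditions. Junctions inside exons gave 0.682 in rich media and 0.531 in heat shock but 1.07 at the diauxic shift (0.929 to 1.23). Junctions antisense to transcripts gave 0.815, 0.613 and 1.15, the last with an interval of 1.03 to 1.29. Alternate junctions with a 5' site downstream of the annotated one went the other way, with 1.31 in rich media (1.02 to 1.70). Their ratios were 0.913 in heat shock and 0.707 at the diauxic shift (0.587 to 0.849). The ypt1 junction, which had the most reads in this class, held 20.5% of them. In rich media the class stood at 8.12 RPM in wild type and 10.6 in the deletion, of which ypt1 gave 1.61 and 3.91. The ratio of 1.31 therefore mostly describes ypt1. Without ypt1 the mean log2 ratio of the class moved from -0.08 to -0.16. The differences between conditions were not tested, because each rests on 1 pair of libraries.

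**Figure D1:**
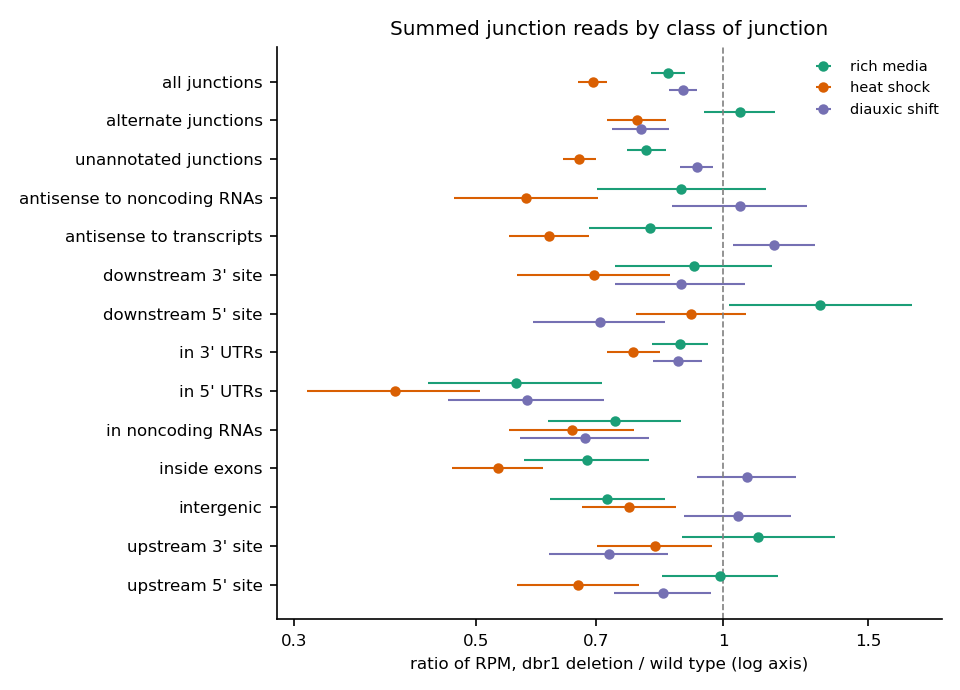
Ratio of summed junction reads in RPM, dbr1 deletion over wild type, on a log axis, for each class of junction (rows) and each growth condition (colours); bars are exact 95% counting intervals and the dashed line marks equal sums. A residual class of 90 junctions is not drawn. Junctions in 5' untranslated regions lie at 0.558, 0.398 and 0.577, left of the other classes in each condition.

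No single junction passed the test. The edgeR quasi-likelihood test, with growth condition as block and the aligned reads as library size, was run on the 97 junctions that passed a filter on low counts. It called 0 of 97 (0%) at a Benjamini-Hochberg adjusted p below 0.05, and the smallest adjusted p was 0.327. An unadjusted p below 0.05 was reached by 9 junctions. DESeq2 also called 0, with 3 junctions at an unadjusted p below 0.05. The median log2 change over the 97 junctions was -0.41, with 73 lower (75.3%) and 24 higher in the deletion. Without the filter, over all 1954 junctions with reads, the median was -0.29, with 1104 lower (56.5%) and 850 higher. This shift depends on the scaling, since TMM factors placed the median at -0.02 with 50 lower and 47 higher, and DESeq2 size factors at 0.07 with 43 lower and 54 higher.

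The depth allows only coarse statements on single junctions. The standard error of the log2 change ran from 0.14 to 2.78 with a median of 0.59, and for 9 of the 97 junctions the 95% interval lay within a 2-fold change in either direction. RPM values were lower in the deletion in all 3 pairs at 29 of the 97 junctions (29.9%) and higher in all 3 at 3 (3.09%). By condition, 59 junctions were lower in rich media, 76 in heat shock and 56 at the diauxic shift. The filter removed 1857 of the 1954 junctions with reads, and all counts over tested junctions concern the best covered ones.

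**Figure D2:**
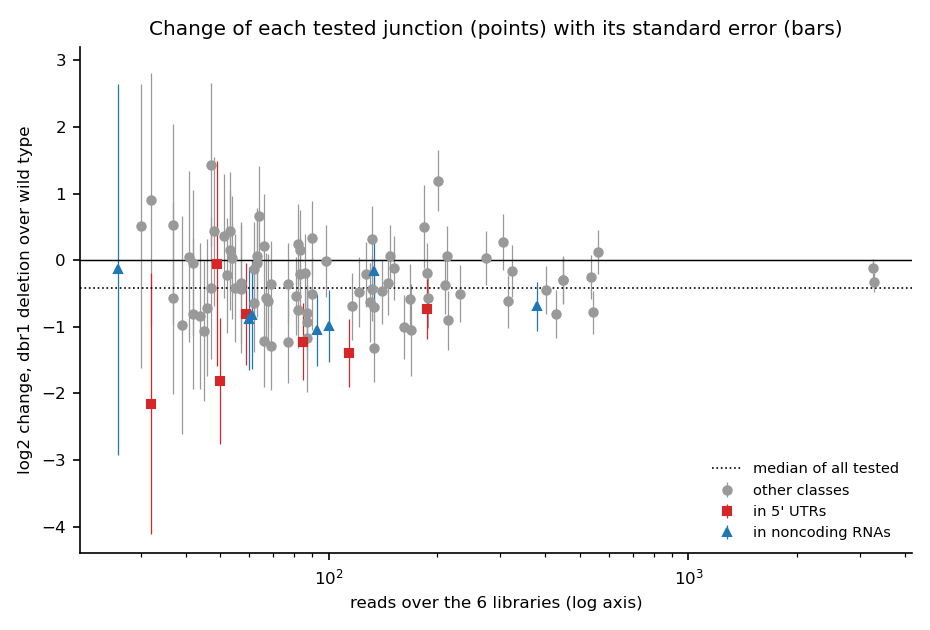
Log2 change of each of the 97 tested junctions (vertical axis, dbr1 deletion over wild type, scaled by aligned reads) against its reads over the 6 libraries (log axis); bars are standard errors, red squares are junctions in 5' untranslated regions, blue triangles those in noncoding RNAs, and the dotted line is the median of -0.41. All 7 squares and all 7 triangles lie below 0, 6 and 5 of them also under TMM scaling, and the bars narrow as reads increase.

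The most deeply read junctions were those of tom7, which codes for a small subunit of the translocase of the outer mitochondrial membrane, the entry gate for proteins imported into mitochondria. Both lie in its 3' untranslated region and match introns of the reference annotation. The 56-base intron had 459 reads in wild type and 546 in the deletion in rich media, 603 and 425 in heat shock, and 810 and 441 at the diauxic shift. In RPM these were 36.9 and 35.0, 39.7 and 25.2, and 43.0 and 35.8, and all 3 wild type libraries stood above all 3 deletion libraries. The log2 change was -0.33 (SE 0.14, 95% interval -0.61 to -0.05, edgeR adjusted p = 0.380). The neighbouring 54-base intron had 438 and 538, 508 and 479, and 810 and 495 reads, and the strains overlapped in RPM. Its log2 change was -0.12 (SE 0.14, interval -0.40 to 0.16, adjusted p = 0.808), so that changes beyond 2-fold lie outside the edgeR intervals of both tom7 junctions. With DESeq2 on the same scaling the log2 changes were alike, but the standard errors were 0.62 (56 bases) and 0.60 (54 bases). The 2-fold bound therefore holds for edgeR alone. Under TMM factors the log2 changes of the pair were 0.07 and 0.28.

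Among junctions in 5' untranslated regions, 7 were tested, 0 passed, and all 7 had a negative log2 change (6 of 7 under TMM, DESeq2 size factors or summed junction counts), 5 of them with lower RPM in every pair. The median of the 7 was -1.22, against -0.41 over all 97. The leading one lies in deb1, named in the annotation as a DNA-binding transcription factor. It had 29 reads in wild type and 14 in the deletion in rich media, 23 and 8 in heat shock, and 31 and 9 at the diauxic shift. All 3 wild type libraries stood above all 3 deletion libraries, at 1.51 to 2.33 RPM against 0.475 to 0.897. The log2 change was -1.39 (SE 0.51, edgeR adjusted p = 0.327). The junction in SPAC4H3.01, which the annotation names a protein with a DNAJ domain, the part of a cochaperone that binds Hsp70, had 15 and 8, 15 and 10, and 31 and 6 reads, with a log2 change of -1.22 (SE 0.58, adjusted p = 0.429). The remaining 5 lay in efm3, cnl2, kha1, yhb1 and prz1, with log2 changes from -2.16 for yhb1 to -0.05 for prz1.

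All 7 tested junctions in noncoding RNAs had negative log2 changes too (5 of 7 under the other scalings), with a median of -0.82, and 0 passed. The 11 tested junctions inside exons were likewise all lower (8 of 11 under TMM and 4 of 11 under DESeq2 size factors), with a median of -0.47. Over all tested junctions 73 of 97 were lower. SPNCRNA.1597, a noncoding RNA with an intron listed in the reference annotation, had 66 and 69 reads in rich media, 82 and 46 in heat shock, and 85 and 31 at the diauxic shift. In RPM these were 5.31 and 4.42, 5.40 and 2.73, and 4.51 and 2.51, so that the highest deletion library lay just below the lowest wild type library. The log2 change was -0.69 (SE 0.37, adjusted p = 0.443).

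Among alternate junctions 27 were tested and 0 passed, with 16 lower, 11 higher and a median of -0.13. The prp10 junction uses a 3' site 19 bases upstream of the annotated one. Prp10 is the fission yeast SF3B1, the U2 snRNP protein that holds the branch site. It had 20 and 4 reads in rich media, 46 and 25 in heat shock, and 28 and 11 at the diauxic shift. The log2 change was -1.32 (SE 0.50, adjusted p = 0.327), lower in each pair, with a ratio of 0.159 in rich media (0.040 to 0.476) and 0.601 at the diauxic shift (0.270 to 1.24). Without the diauxic pair the junction passed the edgeR test among the 76 then tested.

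The rpl2502 junction, in a gene for the large ribosomal subunit protein uL23, uses a 5' site 26 bases upstream of the annotated one. It had 95 and 81, 74 and 40, and 102 and 37 reads. Wild type lay at 7.64, 4.87 and 5.41 RPM and the deletion at 5.19, 2.38 and 3.001, and the groups overlapped across conditions though each pair was lower. The log2 change was -0.81 (SE 0.35, adjusted p = 0.384). The vma13 junction, in a subunit of the vacuolar proton pump, had 52 and 66, 87 and 100, and 169 and 62 reads. The pairs were level in rich media and heat shock, and the ratio was 0.561 at the diauxic shift (0.412 to 0.755). Its log2 change was -0.26 (SE 0.33), or 0.15 under TMM and 0.04 without the diauxic pair, and did not pass.

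The only junction of the 9 with an unadjusted p below 0.05 that was higher in the deletion lies in the 3' untranslated region of SPAC343.20, an uncharacterized protein. It had 18 and 22 reads in rich media, 22 and 60 in heat shock, and 20 and 59 at the diauxic shift. The strains were level in rich media, at 1.45 and 1.41 RPM, and apart in heat shock, at 1.45 and 3.56, and at the diauxic shift, at 1.06 and 4.79. The log2 change was 1.19 (SE 0.46, edgeR adjusted p = 0.327). With the sum of junction counts as library size it was 1.51 with an adjusted p of 0.044, the 1 call under that scaling.

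The other junctions with an unadjusted p below 0.05 were in sce3, crd1 and tim9. Sce3, a translation initiation factor, had 142 and 105, 55 and 53, and 151 and 38 reads at an intron of its 3' untranslated region, with a log2 change of -0.78 (SE 0.33). The authors class a 76-base intron of crd1 as inside an exon, and it matches an intron of the reference annotation. This intron of crd1, a gene whose fusion protein includes cardiolipin synthase, had 23 and 9, 42 and 14, and 43 and 31 reads. The tim9 junction, in the 3' untranslated region of a small Tim chaperone of the mitochondrial intermembrane space, had 32 and 16, 55 and 19, and 53 and 39 reads. In both, the deletion was lower in rich media and heat shock and slightly higher in RPM at the diauxic shift, at ratios of 1.10 and 1.125. Without the diauxic pair both passed the edgeR test, with log2 changes of -1.70 and -1.51, as did the ekc1 junction.

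The mamRNA junction followed the tom7 pair in reads. This RNA is named for its binding to Mmi1 and Mei2, RNA-binding proteins of the switch into meiosis; the authors class the junction as intergenic, and the reference annotation has the gene there. It had 66 and 47 reads in rich media, 171 and 193 in heat shock, and 32 and 50 at the diauxic shift. The ratio was 0.568 in rich media (0.382 to 0.838), 1.02 in heat shock and 2.39 at the diauxic shift (1.503 to 3.85). With opposite directions the log2 change was 0.12 (SE 0.33, adjusted p = 0.911).

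**Figure D3:**
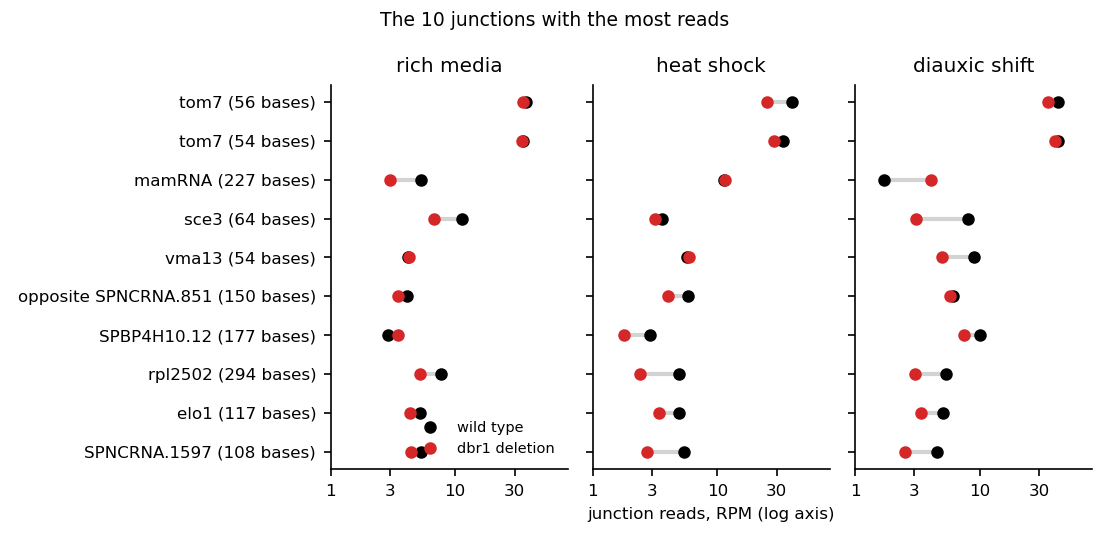
Junction reads in RPM (log axis) of the 10 junctions with the most reads, in wild type (black) and the dbr1 deletion (red), 1 panel for each growth condition and 1 library for each point. The pair of tom7 introns lies above 25 RPM in all libraries, and mamRNA is lower in the deletion in rich media and higher at the diauxic shift.

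The remaining junctions of the 10 most read were an intron opposite SPNCRNA.851, one in SPBP4H10.12 that matches a reference intron, and the exonic intron of elo1, a fatty acid elongase. Their log2 changes were -0.30 (SE 0.35), -0.30 (SE 0.36) and -0.45 (SE 0.36), and under DESeq2 size factors 0.18, 0.16 and 0.02. The elo1 junction had 65 and 68, 74 and 57, and 96 and 42 reads, lower in RPM in each pair. Over the 97 junctions, Spearman's rho of the log2 change was -0.10 with length, -0.06 with lariat reads and -0.05 with junction reads, given as a description of junctions that share libraries.

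The authors also deposited a fraction headed PSI, usually read as percent spliced in, for each unannotated junction and library. The sources used here do not state what it is divided by, and a value of 0 is also listed in libraries without junction reads. Of the 7410 unannotated junctions, 213 had at least 10 reads over the 6 libraries, and 120 of these had a PSI of 0 in at least 1 library. With limma, 0 of 213 (0%) passed, the smallest adjusted p was 0.797, and 9 had an unadjusted p below 0.05. The mean paired difference was negative at 140 and positive at 73, with a median of -0.0209. PSI was lower in the deletion in all 3 pairs at 35 junctions (16.4%) and higher in all 3 at 12 (5.63%).

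The balance of lower and higher PSI differed in number between conditions. In rich media 127 junctions were lower and 50 higher, in heat shock 122 and 79, and at the diauxic shift 92 and 116. Junctions in 5' untranslated regions and noncoding RNAs were more often lower also at the diauxic shift, with 11 lower and 7 higher, and 19 lower and 14 higher. Of the 31 junctions with at least 100 reads, 29 were lower and 2 higher in rich media, with a median difference of -0.0841. In heat shock 20 were lower and 10 higher, with a median difference of -0.0747, and at the diauxic shift 12 were lower and 18 higher, with a median of 0.0228. An exact sign-flip permutation test of the 3 medians gave p = 0.50, and the difference between conditions was not tested. Over the 70 junctions with both values, Spearman's rho between the log2 change and the PSI difference was 0.56, and both contain the same junction reads.

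**Figure D4:**
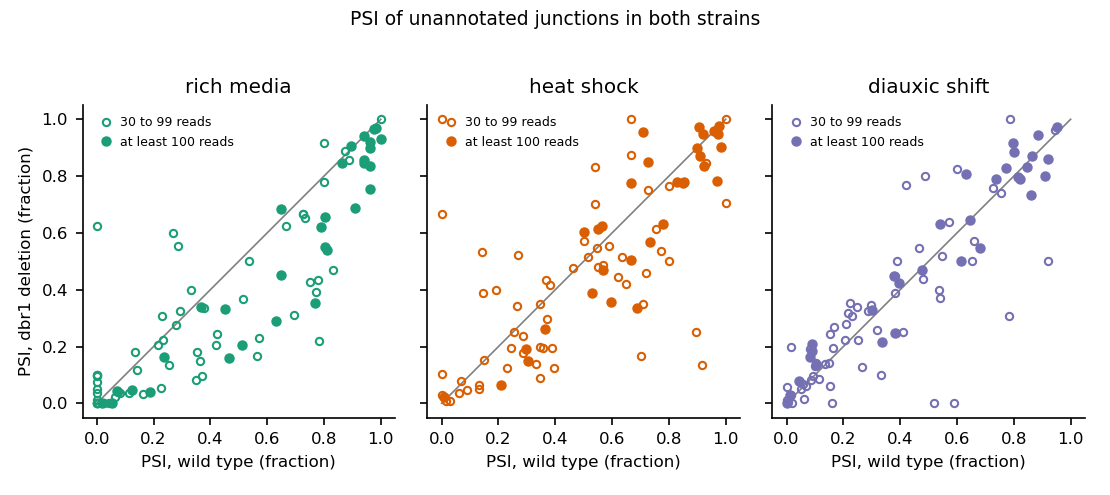
PSI of unannotated junctions (fractions from 0 to 1) in wild type (horizontal axis) and the dbr1 deletion (vertical axis), 1 panel for each growth condition, for the 90 junctions with at least 30 reads; filled points have at least 100 reads and the line marks equal values. In rich media 29 of the 31 filled points lie below the line, and at the diauxic shift 12 do.

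The elo1 intron had the steadiest difference among well covered junctions. Its PSI was 0.451 in wild type and 0.331 in the deletion in rich media, 0.569 and 0.469 in heat shock, and 0.335 and 0.217 at the diauxic shift. The mean difference was -0.113 (SE 0.0197, limma adjusted p = 0.797), nearly the same in each pair while the level varied with growth. The deb1 intron had PSI values of 0.630 and 0.289, 0.597 and 0.356, and 0.380 and 0.247, a mean difference of -0.239 (SE 0.0527). Every deletion value there lay below every wild type value. An intron that the authors class as intergenic and that overlaps acs1 in the reference, the gene for the acetyl-CoA ligase that activates acetate, had 0.941 and 0.857, 0.853 and 0.778, and 0.862 and 0.735.

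The pair of tom7 introns differed in PSI. The 56-base intron had 0.962 and 0.836 in rich media, 0.968 and 0.784 in heat shock, and 0.822 and 0.790 at the diauxic shift. The 54-base intron stayed between 0.951 and 0.984 in all 6 libraries, with a mean difference of 0.00277 (SE 0.0209). The mamRNA intron had 0.767 and 0.352 in rich media, 0.549 and 0.615 in heat shock, and 0.302 and 0.327 at the diauxic shift, so that its wide gap stood in rich media alone among the 3 pairs. For SPAC343.20 PSI was low in both strains, at 0.235 and 0.164 in rich media and between 0.008 and 0.028 in the other 4 libraries, although its RPM was higher in the deletion in heat shock and at the diauxic shift.

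**Figure D5:**
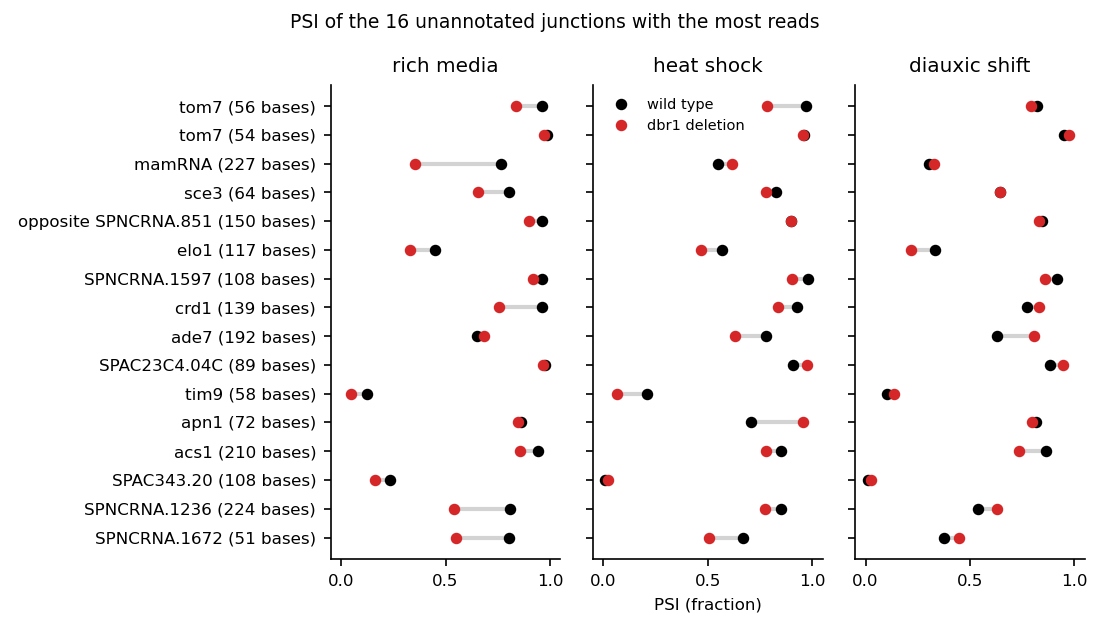
PSI (fraction) of the 16 unannotated junctions with the most reads in wild type (black) and the dbr1 deletion (red), 1 panel for each growth condition and 1 library for each point. The elo1 intron is lower in the deletion by a similar step in each panel, and the 54-base tom7 intron stays between 0.951 and 0.984.

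In 5' untranslated regions 18 junctions were tested for PSI, with 15 lower and 3 higher and a median difference of -0.101, against -0.0209 over all 213. The exact permutation test over the medians of the 3 pairs gave p = 0.25, the smallest possible. Intergenic junctions had 17 lower and 5 higher, with a median difference of -0.0878, and junctions inside exons 20 lower and 6 higher, with a median of -0.0308. Junctions in 3' untranslated regions had 25 lower and 17 higher of 42, with a median difference of -0.00538.

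The 10 junctions with the largest mean PSI difference were mostly thinly read, with 10 to 39 reads over the 6 libraries. SPAC23H3.04, an uncharacterized protein, had an exonic intron at 0.750 and 0.429 in rich media, 0.80 and 0.50 in heat shock, and 0.783 and 0.308 at the diauxic shift, a mean of -0.365 (SE 0.0489, limma adjusted p = 0.797). It rests on 39 reads, 27 of them in the wild type diauxic library. The noncoding RNAs SPNCRNA.1432 and SPNCRNA.1316 had mean differences of -0.587 and -0.526 on 11 and 23 reads. The others were snoZ, wtf22, SPNCRNA.3393, SPNCRNA.828, SPNCRNA.4545, an intergenic intron and one opposite SPAC7D4.08. Of the 10, 8 had a negative and 2 a positive mean difference.

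Genes of lariat turnover and spliceosome disassembly, the steps in which Dbr1 works, held few of the junctions. Of 14 listed genes, 7 had 15 junctions between them, and 3 of these had reads. The mug161 and ntr2 junctions had 1 read each in wild type, in heat shock and in rich media. The list also held prp2, although the annotation names it a U2 auxiliary factor. Its junction had 1 read in the deletion in rich media. None of the 3 could be tested.

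Splicing factors had 123 junctions in 60 of 107 listed genes, and 36 with reads. Of these 3 were tested and 0 passed, with 2 lower, 1 higher and a median log2 change of -0.63, against -0.41 over all. Besides prp10, sap49, a U2 snRNP protein, had 3 and 0 reads in rich media, 72 and 42 in heat shock, and 6 and 7 at the diauxic shift. The lsm4 junction, in a protein of the U6 snRNP, had 1 and 0, 5 and 19, and 15 and 8 reads.

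RNA decay genes had 82 junctions in 28 of 52 listed genes, with 12 and 6, 15 and 4, and 11 and 6 reads in the 3 pairs, and none was tested on reads. The most read, in ski3 of the Ski complex, had 0 and 0, 3 and 4, and 3 and 2 reads, with a mean PSI difference of 0.067. The upf3 junction, in a factor of nonsense-mediated decay, had 2, 4 and 3 reads in wild type and 0 in each deletion library.

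Stress response genes gave 1 tested junction, in aha1, an activator of the Hsp90 chaperone. It had 69 and 109 reads in heat shock and at most 3 in any other library, with a log2 change of 0.51 (SE 0.63). Respiration genes gave 2 tested junctions, in coq4 of ubiquinone synthesis and qcr6 of the cytochrome bc1 complex, with log2 changes of -0.01 and 0.91, the latter with an SE of 1.90. A junction listed there under lsc1 belongs to a gene that the annotation names a cyclin. Ribosomal protein genes had 167 junctions in 73 genes by name, which include the RNase P subunit rpp40, and 27 had reads. Their 114 and 97, 104 and 58, and 128 and 53 reads came largely from rpl2502, the 1 junction tested.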

How the data were processed

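Whole exon-exon junction counts per library, the aligned reads and the fraction values headed PSI were used as deposited by the authors; build ASM294v2 per the submitters' processing notes, aligner not given in the sources used here. Positions were checked on ASM294v3. Rows sharing chromosome and both splice sites were joined, giving 10352 junctions, 8762 with a gene. Counts were tested with edgeR 4.0.16 (quasi-likelihood, R 4.3.3), condition as block, aligned reads as library size, filterByExpr with a minimum count of 10; PSI with limma 3.58.1 where at least 10 reads existed. Calls need a Benjamini-Hochberg adjusted p below 0.05. DESeq2 1.42.0 was the second tool. The p-values set the mean strain difference against a spread between 3 conditions, and do not test whether it differed between them. In edgeR that spread was largely pooled over the tested junctions, so an SE does not measure the spread of its own junction. The mamRNA junction, with ratios of 0.568, 1.02 and 2.39, had an SE of 0.33. The elo1 junction, with ratios of 0.834, 0.695 and 0.669, had one of 0.36. Pair ratios have exact 95% intervals. Members, lists and the naming rule (largest changes among calls, 10 most read, up to 4 most read per list, 10 largest PSI differences) were chosen with earlier results of these data known, and junctions at an unadjusted p below 0.05 were named after their values were seen.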

Additional observations from a re-analysis of the deposited data

Results flagged for a closer look

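At 6 of the 97 tested junctions the deletion lay above wild type in 1 growth condition and below it in another. The 95% counting intervals of both pair ratios excluded 1 there, and they hold counting error alone. Each condition has 1 library per strain, so the difference between conditions was not tested. A pair of introns of crd1, whose fusion protein includes cardiolipin synthase, shared this pattern. The 139-base intron, which matches an intron of the reference annotation, had ratios of 0.438 in heat shock and 1.74 at the diauxic shift. The 61-base intron, which does not, had ratios of 0.43 and 2.48. The ekc1 junction, in a regulatory subunit of a protein phosphatase, had ratios of 0.234 in rich media, 0.357 in heat shock and 2.09 at the diauxic shift. For mamRNA the ratios were 0.568 in rich media and 2.39 at the diauxic shift. The ypt1 junction, in a GTPase of vesicle transport, had the reverse order, 2.43 in rich media and 0.514 at the diauxic shift. The alb1 junction had a ratio of 4.96 in heat shock, from 2 and 11 reads (1.08 to 46.1), and 0 at the diauxic shift, from 13 and 0 reads, with an upper bound of 0.502.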

How the results depend on the processing

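Counts of calls stayed at 0 for reads and PSI except where named. With the sum of junction counts as library size 1 junction passed, and without the diauxic shift pair 4 passed; leaving out each pair in turn gave 0 to 4 calls for reads and 0 for PSI. Without the replicate block 0 junctions passed for reads (3 at an unadjusted p below 0.05) and 0 for PSI. With no filter 1954 junctions, and at 30 reads 134, gave 0 calls. With the summed junction reads as denominator, mean log2 ratios of summed reads moved to -0.028 for unannotated junctions, -0.68 for 5' untranslated regions and -0.23 for noncoding RNAs. They turned positive for alternate junctions (0.10), antisense to noncoding RNAs (0.0060) and to transcripts (0.041), downstream 3' (0.034) and 5' sites (0.23), 3' untranslated regions (0.066), intergenic (0.043), other annotation (0.28), upstream 3' (0.11) and 5' sites (0.024). Leaving out 1 pair, downstream 5' sites ranged from -0.32 to 0.13 and other annotation from -0.20 to 0.15. Single junctions turned positive under TMM: 0.072 and 0.28 (tom7), 0.15 (vma13), 0.10 (opposite SPNCRNA.851), 0.088 (SPBP4H10.12). Under DESeq2 size factors these were 0.14, 0.36, 0.22, 0.18 and 0.16, with elo1 at 0.023; with summed junction counts tom7 (54 bases), vma13 and SPNCRNA.851 were 0.19, 0.049 and 0.0078. Over the pairs left out in turn, mamRNA ran from -0.34 (without the diauxic pair) to 0.59 and vma13 from -0.42 to 0.035, and the PSI difference of SPNCRNA.4545 from -0.73 to 0 and of SPNCRNA.828 from -0.60 to 0.061. The cause was not tested. Depth limits single junctions: the median standard error was 0.59.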

Other observations

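Several junctions had most of their reads in heat shock, and were picked here after their values were seen. SPNCRNA.1282, a noncoding RNA antisense to a transcript, had 107 reads in wild type and 61 in the deletion in heat shock, and at most 1 in any other library. SPNCRNA.529 had 65 and 20 there and at most 1 elsewhere, and aha1, an activator of Hsp90, had 69 and 109 and at most 3 elsewhere. The sap49 junction had 72 and 42, and up to 7 in other libraries, and SPNCRNA.648 had 94 and 40, and 7 to 10 in each other library. At the diauxic shift, the intron in the 5' untranslated region of prz1, a transcription factor that responds to calcineurin, had 33 and 14 reads, against at most 2 in any other library. None of these passed the test between strains, and the counts are given without an explanation.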
